A study of Mus musculus with 4 samples.

Results

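The miR-23/27/24 genes form a pair of short clusters in the mouse genome, and their mature miRNAs were followed here across 4T1 and 4TO7 cells and the extracellular vesicles (EVs) that these cells released. The 7 members were taken by name from the miRNA tables, out of 1908 mature miRNAs listed at any length. They are mmu-miR-23a-3p, mmu-miR-23b-3p, mmu-miR-24-3p, mmu-miR-27a-3p, mmu-miR-27b-3p, the other arm mmu-miR-27a-5p, and mmu-miR-3074-5p, written below without the species prefix. The last is annotated on the strand opposite to miR-24. The series held 4 small RNA libraries, 1 for each of 4T1 EV, 4TO7 EV, 4T1 cells and 4TO7 cells. Both are mouse breast cancer cell lines, the labels name no drug treatment or altered gene in any group, and DMEM with EV-free serum was given as the medium. The EVs were isolated by differential centrifugation. 4T1 is known for spreading to distant organs and 4TO7 for poor growth there. With 1 library per group there was no replicate error, so every interval below covers counting error only and every difference is one between libraries.

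MiRNAs of one cluster are cut from a shared primary transcript, so that miR-23, miR-27 and miR-24 are usually made together. Drosha and Dicer leave a duplex from each hairpin, of which one arm, the guide, is mostly kept in Argonaute and the other is mostly degraded. The seed, bases 2 to 8 of the miRNA, pairs with target mRNAs. MiR-27 is known for repressing regulators of fat cell formation, miR-24 for repressing cell cycle genes such as MYC, and miR-23a for repressing glutaminase, roles described mainly in human and mouse cells. In breast cancer lines of human origin, miR-27a has been studied as a promoter of growth.

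The sequences of 6 of the 7 members were held in RefSeq (GRCm38.p6), and they are shown because the shared and opposite bases decide how reads were assigned. Capitals mark the seed, and each sequence runs 5′ to 3′. MiR-23b-3p is named only.
miR-27a-3p: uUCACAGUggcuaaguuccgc
miR-27b-3p: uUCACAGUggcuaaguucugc
miR-23a-3p: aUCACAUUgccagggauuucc
miR-24-3p: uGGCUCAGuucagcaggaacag
miR-27a-5p: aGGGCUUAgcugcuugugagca
miR-3074-5p: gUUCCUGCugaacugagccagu
MiR-27a-3p and miR-27b-3p share the seed UCACAGU and are identical at 20 of 21 bases, differing by C19U, with positions counted from 1 at the 5′ end of miR-27a-3p. The seeds of miR-23a-3p, miR-24-3p, miR-27a-5p and miR-3074-5p each occurred in that member alone among the 6.

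In GRCm38 the first cluster lies on the plus strand of chromosome 8, with miR-23a-3p at chr8:84208563-84208583, miR-27a-5p at chr8:84208685-84208706, miR-27a-3p at chr8:84208727-84208747 and a copy of miR-24-3p at chr8:84208875-84208896. No gene other than the miRNA genes spans these positions in GENCODE M21. The second cluster lies on the plus strand of chromosome 13, with miR-27b-3p at chr13:63300760-63300780 and the other copy of miR-24-3p at chr13:63301251-63301272. Both positions overlap annotated exons of 2010111I01Rik, a protein-coding gene on the same strand, and an intron of Fancc on the opposite strand. MiR-3074-5p is annotated on the minus strand in both places, at chr8:84208873-84208894 and chr13:63301249-63301270. The deposited counts were made on mature sequences, so a read of miR-24-3p cannot be placed at either copy.

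Levels were taken as sense-strand reads of 18 nt or more per 1000000 such miRNA reads of the library (RPM). The EV totals were 57962 (4T1) and 51697 (4TO7) and the cell totals 603186 and 177647, from 7108811 to 15633644 reads processed per library. A read was counted under each mature miRNA that it matched with at most 1 mismatch, up to 10 matches, so the counts are of alignments. The 7 members took 13.6% of the miRNA total in 4T1 cells, 6.96% in 4TO7 cells, 8.83% in 4T1 EV and 3.31% in 4TO7 EV, and these shares hold some reads more than once.

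The libraries were checked against marker miRNAs. Of 6 epithelial miRNAs (the miR-200 family and miR-205-5p), 5 had reads in 4T1 cells with a summed 6502 RPM and 2 had reads in 4TO7 cells with 236 RPM, where miR-200a-3p, miR-200c-3p, miR-141-3p and miR-429-3p were at 0. The EV libraries held 6625 RPM (5 of 6) in 4T1 and 96.7 RPM (3 of 6) in 4TO7. Liver miR-122-5p stood at 2760.4 RPM in 4T1 EV and 21123 RPM in 4TO7 EV against 1.66 and 5.63 RPM in the cells. The 5 blood markers summed to 69.0 and 251 RPM in EVs (2 of 5 in each, with miR-144-3p, miR-142-3p and miR-223-3p at 0) and to 0 and 5.63 RPM in cells (0 and 1 of 5). These blood sums in EVs rest on only 4 and 13 reads. The 3 muscle markers summed to 1052 and 116 RPM in EVs (2 of 3 in each) and to 255 and 0 RPM in cells (1 and 0 of 3). The muscle sum in 4TO7 EV rests on 6 reads. Liver miR-122-5p and the blood and muscle sums were thus higher in the EVs than in the cells of each line. Their part in the results below was not tested. In bulk libraries, fewer cells or vesicles of a kind and less RNA in each cannot be told apart.

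MiR-27 was the most abundant of the set in cells. MiR-27a-3p had 33591 reads (55689 RPM) in 4T1 cells, 4277 (24076 RPM) in 4TO7 cells, 1387 (23929.5 RPM) in 4T1 EV and 499 (9652 RPM) in 4TO7 EV. It ranked 4 of 560 detected miRNAs in 4T1 cells and 24 of 323 in 4TO7 EV. The order of its levels was 4T1 cells, then 4TO7 cells and 4T1 EV, whose counting intervals overlap, then 4TO7 EV. MiR-27b-3p had 33318, 4174, 1375 and 505 reads in the same 4 libraries and, as set out below, shares most of its counts with miR-27a-3p.

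MiR-24-3p had a different order. It had 2140 reads (36921 RPM) in 4T1 EV, 7561 (12535 RPM) in 4T1 cells, 2093 (11782 RPM) in 4TO7 cells and 505 (9768 RPM) in 4TO7 EV. It was the member with the most reads in 4T1 EV, where it ranked 8 of 311 miRNAs. The levels of both cell libraries were near each other, with intervals of 12256 to 12819 RPM in 4T1 and 11285 to 12294 RPM in 4TO7 that overlap.

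The miR-23 pair was the least abundant of the 3p arms. MiR-23a-3p had 3028 reads (5020.0 RPM) in 4T1 cells, 717 (4036 RPM) in 4TO7 cells, 108 (1863 RPM) in 4T1 EV and 88 (1702 RPM) in 4TO7 EV. Both EV libraries were below both cell libraries, and the EV intervals overlap each other. MiR-23b-3p had 2925, 699, 102 and 84 reads in the same order, nearly the counts of miR-23a-3p.

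MiR-27a-5p, the arm opposite miR-27a-3p in its hairpin, had 1686 reads (2795 RPM) in 4T1 cells and 403 (2269 RPM) in 4TO7 cells. It had 32 reads (619 RPM) in 4TO7 EV and 6 (104 RPM) in 4T1 EV. The 2 EV intervals, 423 to 874 RPM and 37.99 to 225 RPM, do not overlap, and both lie below the cells.

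MiR-3074-5p had hardly any sense reads. There were 4 reads (6.63 RPM, interval 1.81 to 16.98) in 4T1 cells and 5 (28.1 RPM, interval 9.14 to 65.7) in 4TO7 cells. The EV libraries had 0 of 57962 and 0 of 51697 reads, with exact intervals that reach 63.6 RPM in 4T1 EV and 71.4 RPM in 4TO7 EV. The limit of 3 reads lies at 51.8 RPM in 4T1 EV and 58.0 RPM in 4TO7 EV. A difference between EVs and cells was therefore not detectable for this miRNA at this depth.

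**Figure D1:**
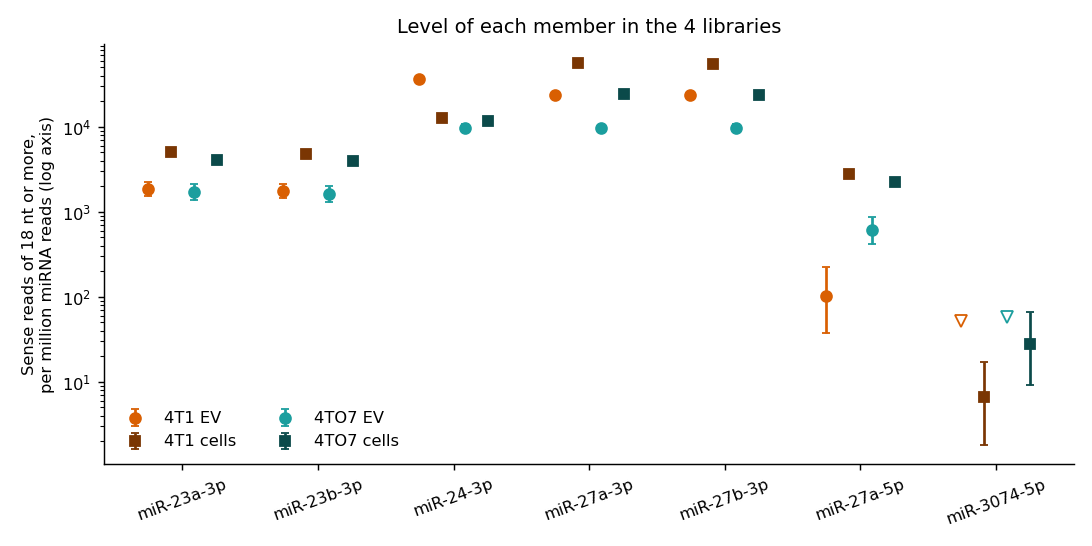
RPM of the 7 members (log axis) in the 4 libraries, with circles for EVs, squares for cells and bars for exact 95% counting intervals. Open triangles mark the limit of 3 reads where a library had none. MiR-24-3p is highest in 4T1 EV, and the other guide arms are higher in cells than in EVs of the same line.

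The comparison of EVs with their cells of origin asked which members were over- or under-represented in vesicles. A member was called higher or lower where the exact 95% interval of the RPM ratio lay wholly beyond 2-fold, among miRNAs that reached 50 reads in either library. In 4T1, miR-24-3p was 2.95-fold higher in EVs (2.81 to 3.09), whereas miR-27a-3p was 2.33-fold lower (2.21 to 2.46), miR-23a-3p 2.69-fold lower (2.22 to 3.30) and miR-27a-5p 27.002-fold lower (12.4 to 73.7). With miR-27b-3p and miR-23b-3p, 5 of 6 compared members were lower and 1 was higher. The a and b names of miR-23 3p and miR-27 3p hold mostly the same reads and are not separate measurements. Counts and medians of members, here and below, include both names. Over all 208 compared miRNAs, 29.8% were called lower and 10.6% higher. The members' median log2 ratio was -1.32, against -1.06 for all. Per genome-aligned read, in place of per miRNA read, the log2 ratio of miR-24-3p turned from 1.56 to -0.996, and every ratio moved by -2.55. That call was also lost with a minimum of 16 nt, at 0.51. Median-of-ratios scaling left miR-27a-5p as the 1 lower call, with miR-23a-3p at -0.99, miR-23b-3p at -1.02 and both miR-27 3p arms at -0.78, and a minimum of 20 nt left 3, without the miR-27 3p arms (-0.79 and -0.80).

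In 4TO7, miR-27a-3p was 2.49-fold lower in EVs (2.27 to 2.74), miR-27b-3p 2.41-fold lower (2.19 to 2.64) and miR-27a-5p 3.66-fold lower (2.55 to 5.43). These 3 of 6 compared members were called lower and none was higher, and the miR-27 3p arms among them hold mostly the same reads. Of 131 miRNAs, 38.2% were called lower and 16.8% higher. MiR-23a-3p had a ratio of 0.422 with an interval of 0.334 to 0.527, and miR-23b-3p one of 0.413 (0.325 to 0.518), so both intervals reached past 0.5 and neither was called. MiR-24-3p had a ratio of 0.829 (0.751 to 0.914), on the side of the cells and within 2-fold. That log2 ratio of -0.27 was 0.0377 with TMM scaling, 0.13 with median-of-ratios scaling, 0.0903 with a minimum of 20 nt and 0.95 with both strands and all listed lengths. The members' median log2 ratio was -1.27, against -0.96 for all. With TMM scaling 1 of the 3 was still called, with median-of-ratios scaling 0, and with all listed lengths and both strands 0. MiR-27a-5p lost its call with a minimum of 20 nt (-1.48) and of 21 nt (-1.43). MiR-23a-3p and miR-23b-3p were called lower with a minimum of 16, 20 or 21 nt (-2.87 and -3.09 at 21 nt) and with genome-aligned reads, so 4 members were called at 20 and at 21 nt.

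**Figure D2:**
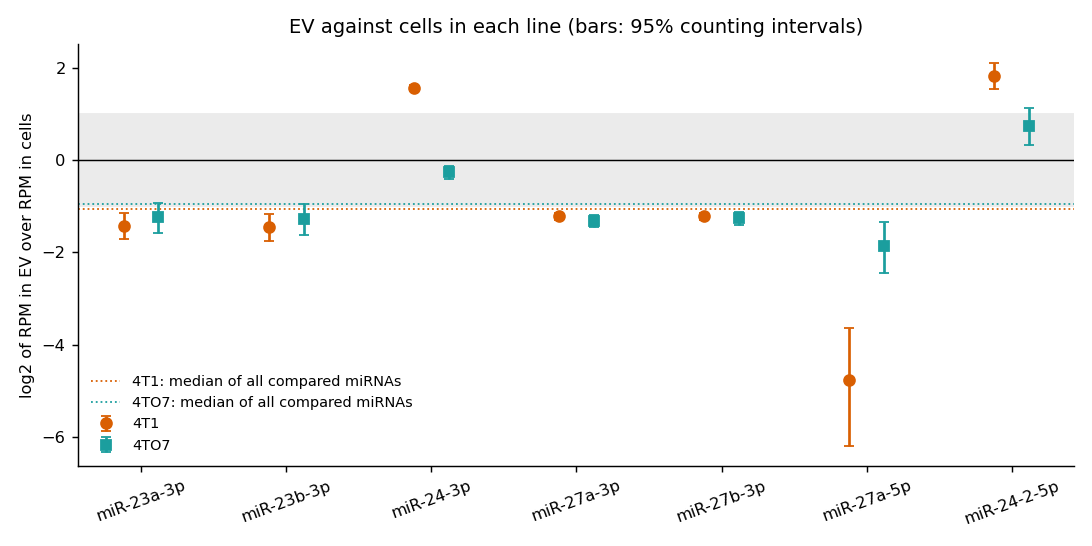
Log2 of RPM in EVs over RPM in cells for each line, with bars for exact 95% counting intervals, grey for the range inside 2-fold and dotted lines for the median of all compared miRNAs (-1.06 in 4T1, -0.96 in 4TO7). The miR-23 and miR-27 guide arms lie near or just below those medians in both lines, miR-24-3p lies above them, and miR-27a-5p is lowest.

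The EV/cell ratio of each member was then set against itself in the other line. For miR-24-3p the ratio was 3.55 times as large in 4T1 as in 4TO7, a log2 difference of 1.83 (1.67 to 1.98). For miR-27a-5p it was smaller in 4T1, with a log2 difference of -2.79 (-4.01 to -1.56), which rests on 6 reads in 4T1 EV. These were the 2 called members of 6, with 5.43% of 129 miRNAs called higher in 4T1 and 12.4% lower. The differences of miR-27a-3p, 0.10 (-0.06 to 0.25), and miR-23a-3p, -0.19 (-0.61 to 0.24), had intervals that span 0. Per genome-aligned read all these differences shift by the same amount. That of miR-24-3p becomes -0.0704, no longer called, and those of miR-27a-3p and miR-27b-3p become -1.80 and -1.85. With both strands and all listed lengths the difference of miR-24-3p was 0.21 and was not called.

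Ratios between members inside a library involve no scaling between libraries. In 4T1 cells there were 0.225 reads of miR-24-3p per read of miR-27a-3p (0.220 to 0.231), and in 4T1 EV there were 1.54 (1.44 to 1.65). In 4TO7 cells the ratio was 0.489 (0.464 to 0.516) and in 4TO7 EV it was 1.01 (0.892 to 1.15). The balance thus moved toward miR-24-3p in both EV libraries, by 6.85-fold (6.38 to 7.37) in 4T1 and 2.07-fold (1.81 to 2.37) in 4TO7. With reads of 21 nt or more the folds were 7.89 (6.87 to 9.07) and 2.50 (2.02 to 3.11). That cut is unequal, since miR-27a-3p is annotated at 21 nt and miR-24-3p at 22 nt. Only untrimmed reads of miR-27a-3p pass it, whereas miR-24-3p reads that lack 1 base pass as well.

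Against miR-23a-3p, miR-24-3p moved from 2.50 reads per read in 4T1 cells to 19.8 in 4T1 EV, and from 2.92 in 4TO7 cells to 5.74 in 4TO7 EV. These changes were 7.94-fold (6.51 to 9.67) and 1.97-fold (1.54 to 2.50), and with reads of 21 nt or more they were 13.4-fold (8.36 to 21.5) and 5.47-fold (3.33 to 8.97). The 21 nt cut is unequal here too, since miR-23a-3p is annotated at 21 nt and miR-24-3p at 22 nt. MiR-27a-3p and miR-23a-3p kept nearly the same balance in EVs and cells of a line. There were 11.1 reads of miR-27a-3p per read of miR-23a-3p in 4T1 cells and 12.8 in 4T1 EV, a fold of 1.16 (0.948 to 1.41). In 4TO7 the ratios were 5.97 and 5.67, a fold of 0.951 (0.748 to 1.21). With reads of 21 nt or more, however, the balance favoured miR-27a-3p in EVs by 1.70-fold (1.06 to 2.74) in 4T1 and 2.19-fold (1.34 to 3.57) in 4TO7. 18 reads of miR-23a-3p reached that length in each EV library.

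The 2 arms of the Mir27a hairpin also differed in balance. There were 5.02 reads of miR-27a-5p per 100 of miR-27a-3p in 4T1 cells, 9.42 in 4TO7 cells, 6.41 in 4TO7 EV and 0.433 in 4T1 EV. The 4T1 EV library is the low one, 11.6-fold below its cells (5.20 to 25.9), and 4TO7 EV was 1.47-fold below (1.01 to 2.13). With reads of 21 nt or more, the EV/cell fold of this ratio was 0.157 (0.0649 to 0.380) in 4T1 and 1.26 (0.857 to 1.86) in 4TO7. The cut is unequal for the arms, since miR-27a-3p is annotated at 21 nt and miR-27a-5p at 22 nt. These ratios use miR-27a-3p counts that include reads of miR-27b-3p.

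**Figure D3:**
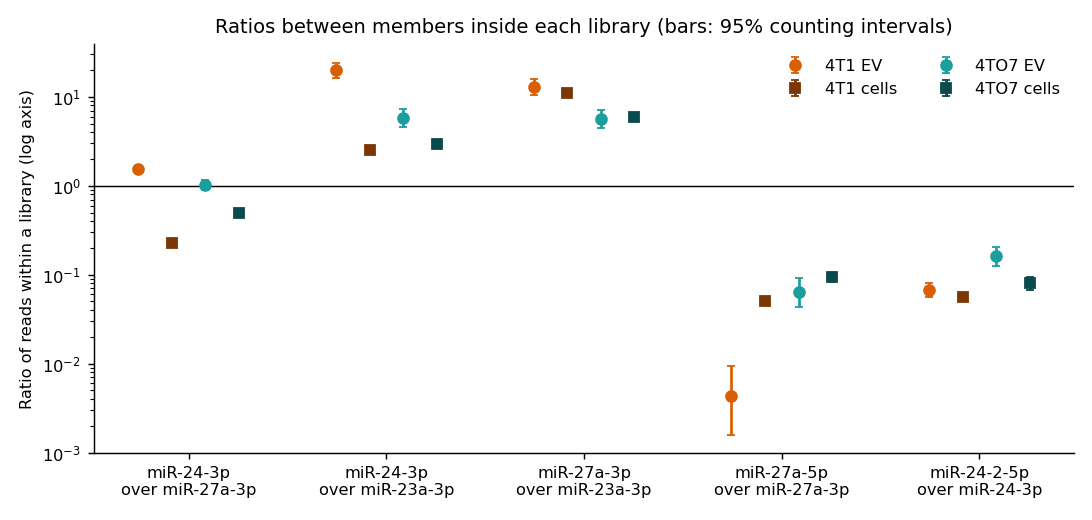
Reads of one miRNA per read of another inside each library (log axis), with circles for EVs, squares for cells and bars for exact 95% counting intervals. MiR-24-3p gains on both miR-27a-3p and miR-23a-3p in the EV libraries, while miR-27a-3p over miR-23a-3p differs between the lines and hardly between EVs and cells.

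Between the 2 cell libraries, miR-27 differed most. MiR-27a-3p was 2.31-fold higher in 4T1 cells (2.24 to 2.39) and miR-27b-3p 2.35-fold (2.28 to 2.43). These 2 of 6 compared members, which hold mostly the same reads, were called. Of 208 miRNAs, 13.5% were called higher in 4T1 cells and 5.29% lower. No member was called lower. MiR-23a-3p (1.24-fold, 1.15 to 1.35), miR-27a-5p (1.23-fold, 1.10 to 1.38) and miR-24-3p (1.06-fold, 1.01 to 1.12) were within 2-fold, and the log2 ratio of miR-24-3p, 0.0892, was -0.0668 with median-of-ratios scaling. Counting reads of 21 nt or more, the log2 ratios of miR-27a-3p and miR-27b-3p were 0.85 and 0.87 and neither was called. Per genome-aligned read, all 6 compared members were called higher in 4T1 cells.

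Between the 2 EV libraries, which enter the EV/cell comparisons as well, miR-24-3p was 3.78-fold higher in 4T1 EV (3.43 to 4.17), miR-27a-3p 2.48-fold (2.24 to 2.75) and miR-27b-3p 2.43-fold (2.19 to 2.69). MiR-23a-3p had a ratio of 1.09 (0.818 to 1.47) and was not called. Thus 3 of 5 compared members were called higher, and the miR-27 3p arms among them hold mostly the same reads. Of 82 miRNAs, 24.4% were called higher and 17.1% lower. MiR-27a-5p was under 50 reads in both libraries, with 6 against 32, and was not compared. The calls of miR-27a-3p and miR-27b-3p were lost with TMM scaling, with genome-aligned reads, with a minimum of 16 nt and with a minimum of 21 nt, and that of miR-24-3p was kept in these 4 settings. With both strands and all listed lengths, none of the 3 was called.

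The listed reads of the members began almost entirely at the annotated 5′ end, so that the seed was kept in them. Reads had to align within the mature sequence, so those that begin before this end could not be listed. Reads longer than the annotated sequence could not be listed either, so each length share also depends on the annotated length. From 98.5% to 100% of the sense reads of miR-23a-3p started at position 1 in each library, and of miR-24-3p from 99.5% to 100%. The reads differed at their 3′ ends. In cells, most listed reads of miR-23a-3p had the annotated length, with 53.3% of reads at 21 nt in 4T1 and 87.0% in 4TO7. In EVs its most common read was 18 nt long, with 38.9% (29.7% to 48.7%) in 4T1 and 50% (39.1% to 60.9%) in 4TO7, against 4.76% and 2.51% in cells. Across all miRNAs outside the set, 18 nt reads were 32.1% (4T1) and 18.03% (4TO7) of EV reads, and 1.02% and 1.28% of cell reads.

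MiR-27a-3p was shortened less. Reads of 21 nt were 55.0% (4T1) and 73.8% (4TO7) in cells, and 25.2% and 39.9% in EVs. In 4T1 EV the 20 nt read led, with 55.1% (52.4% to 57.7%). Reads of 18 nt were 6.06% and 9.42% in the EV libraries, below the share of 18 nt reads among the other miRNAs in the same libraries.

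The most common read of miR-24-3p lacked the last 2 annotated bases in every library, cells included. In cells, 20 nt reads were 50.05% for 4T1 (48.9% to 51.2%) and 47.6% for 4TO7 (45.4% to 49.8%). In EVs they were 72.9% for 4T1 (71.0% to 74.8%) and 65.0% for 4TO7 (60.6% to 69.1%). The full 22 nt read took 34.3%, 36.8%, 18.6% and 26.5% in the same order. Among the miRNAs outside the set, 20 nt reads were 2.54%, 1.90%, 9.06% and 4.42%, and 22 nt was the most common length in all 4 libraries. Reads of 18 nt made up 0.0467% of miR-24-3p in 4T1 EV and 0.792% in 4TO7 EV, the lowest such share of the 3 guide arms shown. With a minimum of 16 nt the log2 EV/cell ratio of miR-24-3p in 4T1 fell from 1.56 to 0.51 and was not called.

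**Figure D4:**
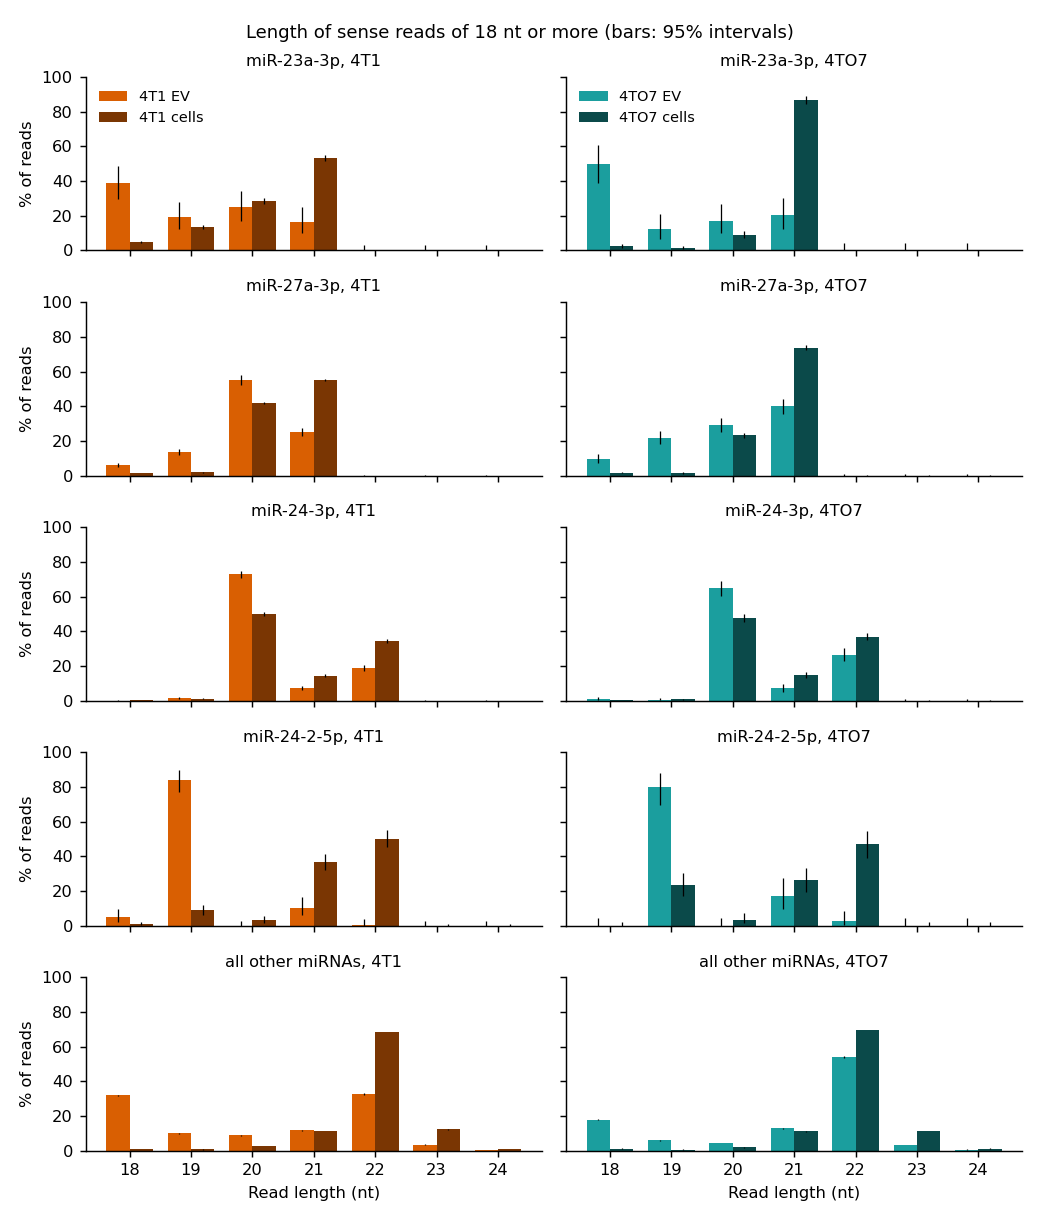
Share of sense reads of 18 nt or more at each length, for EVs (light) and cells (dark) of each line, with bars for exact 95% intervals. Reads longer than the annotated sequence could not be listed. EV reads of miR-23a-3p peak at 18 nt and those of miR-24-2-5p at 19 nt, whereas miR-24-3p peaks at 20 nt in all 4 libraries.

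Near-identical members had nearly identical counts. For miR-23a-3p and miR-23b-3p, the 18 nt reads from position 1 numbered 41, 44, 136 and 13 under both names in 4T1 EV, 4TO7 EV, 4T1 cells and 4TO7 cells. For miR-27a-3p and miR-27b-3p these reads numbered 83, 47, 414 and 46 under both names, and they end before the base that separates this pair. Longer reads were also listed under both, because 1 mismatch was allowed. In 4T1 cells, 18459 reads of 21 nt were listed under miR-27a-3p and 18099 under miR-27b-3p. The separate amounts of the a and b forms therefore cannot be read from these tables.

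The other annotated arms of the hairpins differ more between the clusters. Of 7 such arms, 3 had reads in the EVs of 4T1 and 6 in those of 4TO7, and 5 had reads in each cell library. MiR-3074-1-3p had 1 sense read of 18 nt or more, in 4TO7 EV, and 0 in every other library. One of the 7, miR-24-2-5p of the chromosome 8 cluster, reached 50 reads in a library, and the highest count of any other arm was 13. MiR-24-2-5p had 427 reads (708 RPM) in 4T1 cells, 168 (946 RPM) in 4TO7 cells, 145 (2502 RPM) in 4T1 EV and 81 (1567 RPM) in 4TO7 EV. Its counterpart from chromosome 13, miR-24-1-5p, had 7, 5, 4 and 2 reads. Similarly miR-27b-5p, from chromosome 13, had 10, 5, 1 and 1 reads where miR-27a-5p, from chromosome 8, had 1686, 403, 6 and 32. The miR-23 5p arms had no such excess, with 5, 1, 0 and 5 reads of miR-23a-5p (chromosome 8) and 13, 1, 0 and 1 of miR-23b-5p (chromosome 13).

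The sequences of the miR-24 5p pair are shown because they part before the 3′ end, unlike the 3p arm. Capitals mark the seed, which both share.
miR-24-2-5p: gUGCCUACugagcugaaacagu
miR-24-1-5p: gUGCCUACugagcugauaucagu
MiR-24-2-5p was 3.53-fold higher in 4T1 EV than in 4T1 cells (2.91 to 4.28), and miR-24-3p was also higher there. The log2 ratio of miR-24-2-5p, 1.82, shifts by -2.55 per genome-aligned read, like every ratio in 4T1, and so turns negative. In 4TO7 its ratio was 1.66 (1.25 to 2.17) and it was not called. The EV reads were short. Reads of 19 nt were 84.1% (4T1) and 80.2% (4TO7) of miR-24-2-5p in EVs, against 8.90% and 23.2% in cells, where 22 nt led. With reads of 21 nt or more, miR-24-2-5p per read of miR-24-3p was 0.288-fold in 4T1 EV relative to cells (0.173 to 0.479), whereas from 18 nt upwards the value was 1.20-fold (0.988 to 1.46). Of its 145 reads in 4T1 EV, 122 were 19 nt long, 15 were 21 nt and 1 was 22 nt. In 4T1 cells 157 were 21 nt and 214 were 22 nt. The higher level of miR-24-2-5p in 4T1 EV thus rests on the short reads.

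MiR-3074-5p was listed mostly on the antisense strand, with 1590 antisense alignments from 4T1 EV and 336 from 4TO7 EV, and with 3892 and 1024 from the cells of these lines, all of 18 nt or more. Its first 20 bases are the reverse complement of the first 20 bases of miR-24-3p, which are given in capitals.
miR-24-3p: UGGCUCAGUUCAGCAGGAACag
miR-3074-5p: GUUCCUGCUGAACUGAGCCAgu
A read of miR-24-3p that ends at or before base 20 therefore also aligns to miR-3074-5p on the minus strand, and longer reads do not. The antisense alignments at 20 nt numbered 1559, 328, 3778 and 996 in 4T1 EV, 4TO7 EV, 4T1 cells and 4TO7 cells, and the 20 nt reads of miR-24-3p from position 1 had exactly these counts. All antisense entries that fit inside miR-24-3p had equal counts under both names, at 4 of 4, 3 of 3, 4 of 4 and 4 of 4 combinations of start and length.

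The antisense entries thus held counts equal to 74.2% (4T1) and 66.3% (4TO7) of the miR-24-3p reads in EVs and to 51.2% and 48.5% in cells, which is the share of reads that end by base 20. Counted without regard to strand, miR-3074-5p would have ranked 13 of 321 miRNAs (4T1) and 29 of 334 (4TO7) in EVs, and 30 of 577 and 29 of 452 in cells. It made up 88.0%, 59.3%, 92.6% and 75.3% of all antisense alignments of 18 nt or more, in comparison with 0, 0, 4 and 5 sense reads. Of its sense reads at any length, 97.3% in 4T1 cells and 94.3% in 4TO7 cells were 10 to 12 nt long, and in the EV libraries 100% were.

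A few antisense entries reached beyond miR-24-3p. In EVs there were 2 (4T1) and 1 (4TO7) and in cells 19 and 9, which begin 1 or 2 bases before the annotated 5′ end of miR-24-3p. Such reads could not be listed under miR-24-3p, because reads had to align within the mature sequence. The other arm of this opposite hairpin, miR-3074-2-3p, had 0 sense reads in every library and 129, 65, 54 and 45 antisense alignments in the order above. Each of its start and length combinations had the same count as miR-24-2-5p at the same bases.

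**Figure D5:**
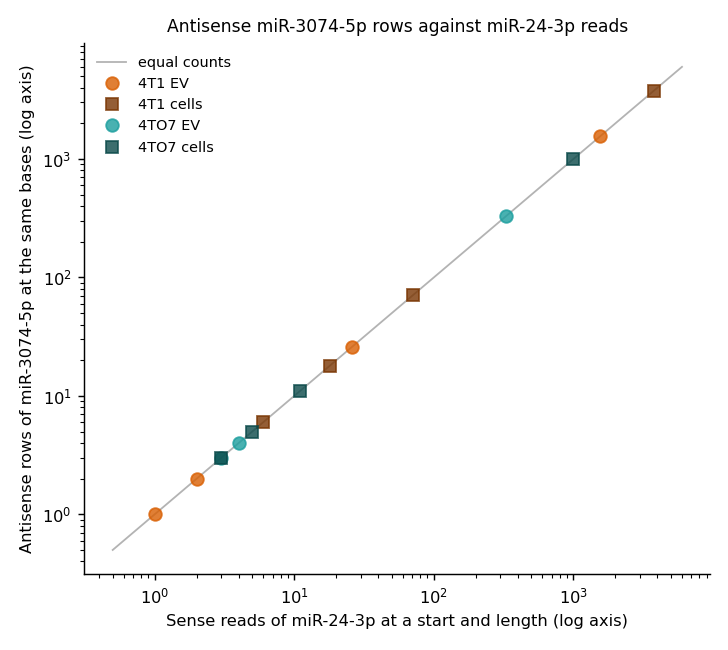
Antisense alignments listed under miR-3074-5p against sense reads of miR-24-3p covering the same bases (log axes), 1 point for each start and length that fits inside miR-24-3p in each library. All points lie on the line of equal counts, from 1 read to 3778.

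Among 49 other miRNAs with 50 or more reads in all 4 libraries, those with the profile most like miR-24-3p were miR-30d-5p, miR-30a-5p and miR-183-5p. Their Euclidean distances over the 4 centred log2 RPM values were 0.88, 0.91 and 0.98, with a median of 2.23 over the 49. MiR-30d-5p stood at 16632 RPM (4T1) and 5455 RPM (4TO7) in EVs and at 10615 and 4379 RPM in cells. Closest to miR-27a-3p were miR-7b-5p (0.79), miR-7a-5p (0.82) and let-7j (1.04), with a median of 1.89. For miR-27b-3p, which holds mostly the same reads, they were miR-7b-5p (0.78), miR-7a-5p (0.82) and let-7j (1.03), with a median of 1.89. These distances describe 4 libraries. Neighbours of one family, such as miR-7a-5p and miR-7b-5p, may hold the same reads under both names, which was not checked.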

How the data were processed

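Small RNA libraries from 4T1 and 4TO7 cells and their EVs, 1 per group, were analysed. Per the labels' protocols, EVs were collected by differential centrifugation, ribosomal RNA was depleted and gel-purified small RNA was converted with a NEBNext kit. The submitters' processing notes name cutadapt, Bowtie, bedtools and mm9, with versions not given in the sources used here. The deposited alignment logs show Bowtie run on mature mouse miRNAs with 1 mismatch and up to 10 matches per read. The miRNA tables that the authors deposited give raw alignment counts for each miRNA by strand, start and length, from 10 nt upwards. Totals of reads processed came from the logs. Read length and genome cluster tables were not used.

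Sense counts of 18 nt or more were summed per miRNA and scaled by their total. Log2 ratios had 0.5 reads added. Calls used exact conditional binomial (Clopper-Pearson) 95% intervals. The line difference used summed Poisson variances. No p-value was computed, since each group had 1 library. Intervals and the floor of 3 reads cover counting error only, since PCR copies carry no molecular identifiers. Python 3.11.15, scipy 1.17.1 and edgeR 4.0.16 (TMM factors only) were used. The calls were also run on simulated Poisson counts with known folds. Such counts hold no replicate, shared-read or scaling error, so that run says nothing about these. All 7 members and the other arms of their hairpins were named. For the 3 members with the largest mean RPM, the 3 miRNAs nearest in profile were named. Members and lists were chosen with earlier results of these data known.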

Additional observations from a re-analysis of the deposited data

Results flagged for a closer look

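The EV/cell log2 ratio of miR-24-3p had opposite signs in the 2 lines, 1.56 in 4T1 and -0.27 in 4TO7, a difference of 1.83. The 4TO7 ratio was within 2-fold and not called. The signs were opposite as scaled here, but both were positive with TMM scaling, median-of-ratios scaling, a minimum of 20 nt, and both strands with all listed lengths (4TO7 values of 0.0377, 0.13, 0.0903 and 0.95). With genome-aligned reads both were negative, at -0.996 and -0.93. With 1 library per group the difference between the lines was not tested.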

How the results depend on the processing

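No paired analysis was possible because each group had 1 library, so no replicate could be left out either. The numbers of members called changed as follows. With a minimum of 16 nt, 0 were higher in 4T1 EV than in cells, 5 lower in 4TO7 EV than in cells and 1 higher in 4T1 EV than in 4TO7 EV. With 20 nt, 3 were lower in 4T1 EV than in cells and 4 in 4TO7 EV than in cells. With 21 nt, 4 were lower in 4TO7 EV than in cells, where at both lengths both miR-23 3p arms gained and miR-27a-5p lost the call, 0 were higher in 4T1 cells than in 4TO7 cells and 1 higher in 4T1 EV than in 4TO7 EV. With both strands and all lengths, 2 were higher in 4T1 EV than in cells, 1 was higher and 0 lower in 4TO7 EV than in cells, 0 were higher in 4T1 EV than in 4TO7 EV and 5 had a line difference. In each line the higher call other than miR-24-3p was miR-3074-5p, whose counts in that setting mostly mirror reads of miR-24-3p. That setting turned miR-27b-3p in 4TO7 EV against cells to 0.0423 and the line differences of miR-27a-3p and miR-27b-3p to -1.54 and -1.59, and that of miR-24-3p fell to 0.21, not called. With genome-aligned reads, 0 were higher in 4T1 EV than in cells, 5 lower in 4TO7 EV than in cells, 6 higher in 4T1 cells than in 4TO7 cells, 1 higher in 4T1 EV than in 4TO7 EV and 5 had a line difference. MiR-24-3p in 4T1 turned to -0.996 and its line difference to -0.0704, and those of miR-27a-3p and miR-27b-3p to -1.80 and -1.85. TMM left 1 lower in 4TO7 EV than in cells and 1 higher in 4T1 EV than in 4TO7 EV. Median-of-ratios scaling left 1 lower in 4T1 EV than in cells and 0 lower in 4TO7 EV than in cells. A minimum of 10 reads called 1 lower in 4T1 EV than in 4TO7 EV, miR-27a-5p. Counting only reads from position 1 changed no count. The causes were not tested.

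Scaling moved the median log2 ratio of all compared miRNAs by -2.55, -0.66, 1.503 and -0.40 with genome-aligned reads, in the order 4T1 EV against cells, 4TO7 EV against cells, cells and EVs. Median-of-ratios scaling moved it by 0.44, 0.40, -0.16 and -0.12, and TMM by 0.31 in 4TO7 EV against cells and by -0.18 between EVs. Higher calls as a share of all calls were 26.2%, 30.6%, 71.8% and 58.8%. They were 2.73%, 16.05%, 98.5% and 37.9% with genome-aligned reads, 47.0%, 41.9%, 60.5% and 50% with median-of-ratios scaling, and 42.9% between EVs with TMM. The ratios inside a library do not depend on scaling. Their values with 16 nt and 21 nt were chosen after seeing the data. Depth limits miR-3074-5p and the 6 EV reads of miR-27a-5p in 4T1.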

Other observations

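The small excess of one near-identical name over the other depended on read length. In 4T1 cells, miR-27a-3p exceeded miR-27b-3p by 360 reads at 21 nt, whereas at 20 nt it had 74 fewer and at 19 nt 10 fewer. In 4TO7 cells the excess was 98 reads at 21 nt and 5 at 20 nt. MiR-23a-3p exceeded miR-23b-3p in total by 6, 4, 103 and 18 reads in 4T1 EV, 4TO7 EV, 4T1 cells and 4TO7 cells. The mismatch of each read is not given in the tables used here, so these reads were not sorted further.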
